A study of Homo sapiens with 8 samples.

Results

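The NOTCH genes described here are the receptors NOTCH1, NOTCH2 and NOTCH3, the nuclear factors RBPJ and MAML1, the ubiquitin ligase gene FBXW7 and the target genes HES1, HES4, DTX1 and NRARP. They were chosen by name, and all 10 were present among the 13453 genes of the FPKM table. RNA-seq was performed on 8 libraries of Jurkat, a human T-cell acute lymphoblastic leukemia (T-ALL) line, to compare cells with and without CBAP, the product of TMEM102. There were 2 libraries in each of 4 conditions. The sh-Ctrl cells carry a non-targeted shRNA and the CBAP knockdown cells an shRNA against CBAP, and these are called the shRNA set. The CBAP knockout cells were made with CRISPR/Cas9 and express GFP, and the CBAP-reconstituted cells are knockout cells given CBAP back as a GFP fusion. These are called the CRISPR set, in which no library comes from unedited cells. Stable shRNA lines were selected with puromycin, knockout lines were grown from single sorted cells, and the sources used here do not say which shRNA or which clone each library came from. Values are FPKM, a count of sequenced fragments scaled to transcript length and library size, and changes are log2 differences of (FPKM + 1).

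HES4, the most highly expressed of the 10 genes, fell in both sets, to 162 ± 7.86 from 236 ± 19.8 FPKM after knockdown and to 120 ± 7.23 from 224 ± 4.45 FPKM in knockout cells (SD, n = 2 each). Its paralog HES1 fell in knockout cells against CBAP-reconstituted cells, whereas its level was higher after knockdown without passing the test, and these changes differed between the sets. DTX1 also fell in the knockout comparison, and its change differed between the sets. RBPJ fell and NRARP rose after knockdown, and NOTCH2 fell in the knockout comparison, but these calls were lost in several alternative fits. NOTCH1, NOTCH3, MAML1 and FBXW7 passed the test in neither comparison.

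NOTCH receptors are cut by proteases when a ligand on a neighbouring cell binds, and the freed intracellular part enters the nucleus. There it joins the DNA-binding protein RBPJ and a coactivator of the Mastermind family such as MAML1 and switches on genes including the HES repressors, DTX1 and NRARP. FBXW7 marks the intracellular part for destruction, and NRARP dampens the signal. The pathway directs early T-cell development and is often activated in T-ALL, where NOTCH1 and FBXW7 are frequently mutated. The RNA levels given here carry no information on receptor cleavage or on mutation.

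Because RBPJ binds a short DNA word, the letters GTGGGAA were searched on both strands in RefSeq promoter windows (GRCh38.p14) of 300 bases, which run from 250 bases before to 50 after each start. Of the 10 genes, 9 had 1 or more windows, 16 in all, and DTX1 had none. The word was found in HES1, HES4 and RBPJ, thus in 3 of 9 genes, and in 3 of the 16 windows. Over all 35116 windows 6.25% held it, and over genes with a window 7.62% did. The last 120 bases before each of these starts are shown in gene direction, with the word or its reverse complement in capitals. HES1 and HES4 are paralogs, and RBPJ encodes the factor itself:
HES1, chr3:194136028-194136147, plus strand: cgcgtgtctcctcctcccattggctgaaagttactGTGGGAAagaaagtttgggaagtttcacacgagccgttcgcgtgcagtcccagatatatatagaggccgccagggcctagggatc
HES4, chr1:1000098-1000217, minus strand: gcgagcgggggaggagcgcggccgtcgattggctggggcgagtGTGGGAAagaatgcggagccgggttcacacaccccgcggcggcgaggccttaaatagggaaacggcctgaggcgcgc
RBPJ, second of its 5 windows, chr4:26319626-26319745, plus strand: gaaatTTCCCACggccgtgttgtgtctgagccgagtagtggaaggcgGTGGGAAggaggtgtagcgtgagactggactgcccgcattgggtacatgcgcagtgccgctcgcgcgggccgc
The word begins 85 bases before the start of HES1 and 77 bases before that of HES4. It lies within tGTGGGAAagaa, the longest run that these stretches of HES1 and HES4 share, with 12 letters. The RBPJ window holds the word once on each strand, and 0.248% of all windows hold it 2 or more times on either strand. A head-to-head pair, GTGGGAA followed after 12 to 20 bases by TTCCCAC, was found in 1 of all windows and in none of the 16. This search counted only an exact second word. The HES1 and HES4 stretches both hold ttcacac after the word, which differs from TTCCCAC by 1 letter. In both it begins 12 to 20 bases after the word, so each stretch holds a head-to-head pair with an inexact second word. How often such inexact pairs occur over all windows was not counted. A match is a description of the letters only, and no binding was measured.

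The targeted gene TMEM102 had FPKM values of 4.07 and 4.74 in sh-Ctrl and 2.69 and 2.89 in CBAP knockdown libraries. It was listed at 0 in the 4 libraries of the CRISPR set, and this gene therefore gives no check of how those libraries are labelled. Library sums lay between 362080 and 434740 FPKM, and the depth behind them is unknown. Each library had 606 to 1256 genes listed at 0, some of them well expressed in the other library of the condition. Of 15 T-cell and T-ALL markers 14 were in the table, each with a mean of at least 1 FPKM, and their summed level was 1762 to 2693 FPKM. Of 5 B-cell markers only CD79A was listed (summed level 0.732 to 22.5 FPKM), and of 6 myeloid markers none was. Of 5 erythroid markers 2 were listed (summed level 0 to 6.56 FPKM), and of 5 markers grouped as stromal or epithelial 3 (6.997 to 10.1 FPKM). Most of the latter sum came from PECAM1 (mean 6.92 FPKM), which is not specific to those cells. In the knockout comparison 7 T-cell markers were higher and 2 lower at an adjusted p under 0.05, beside 23.9% and 25.9% of all tested genes. Over the 8 libraries, both CBAP-reconstituted libraries were the lowest for 5 of the 14 markers (CD247, CD2, CD5, CD7 and CD28) and the highest for 3 (TRAT1, TAL1 and RAG1). CD5 had 0.180 and 0.231 FPKM in CBAP-reconstituted and 27.1 and 27.4 FPKM in CBAP knockout libraries, with 19.7 to 21.7 FPKM in the shRNA set. CD28 had 2.93 and 2.59 against 35.5 and 37.5 FPKM in the same libraries. The part of these marker differences in the knockout results below was not tested. Loss of CBAP and other differences between the lines cannot be told apart in that comparison. The same holds for the knockdown comparison, as sh-Ctrl and CBAP knockdown cells are also separately selected stable lines. In bulk RNA, fewer cells with a transcript and less of it per cell cannot be told apart either. Nothing in the labels says that libraries of a condition came from separate cultures, so the spread between them may be technical.

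**Figure D1:**
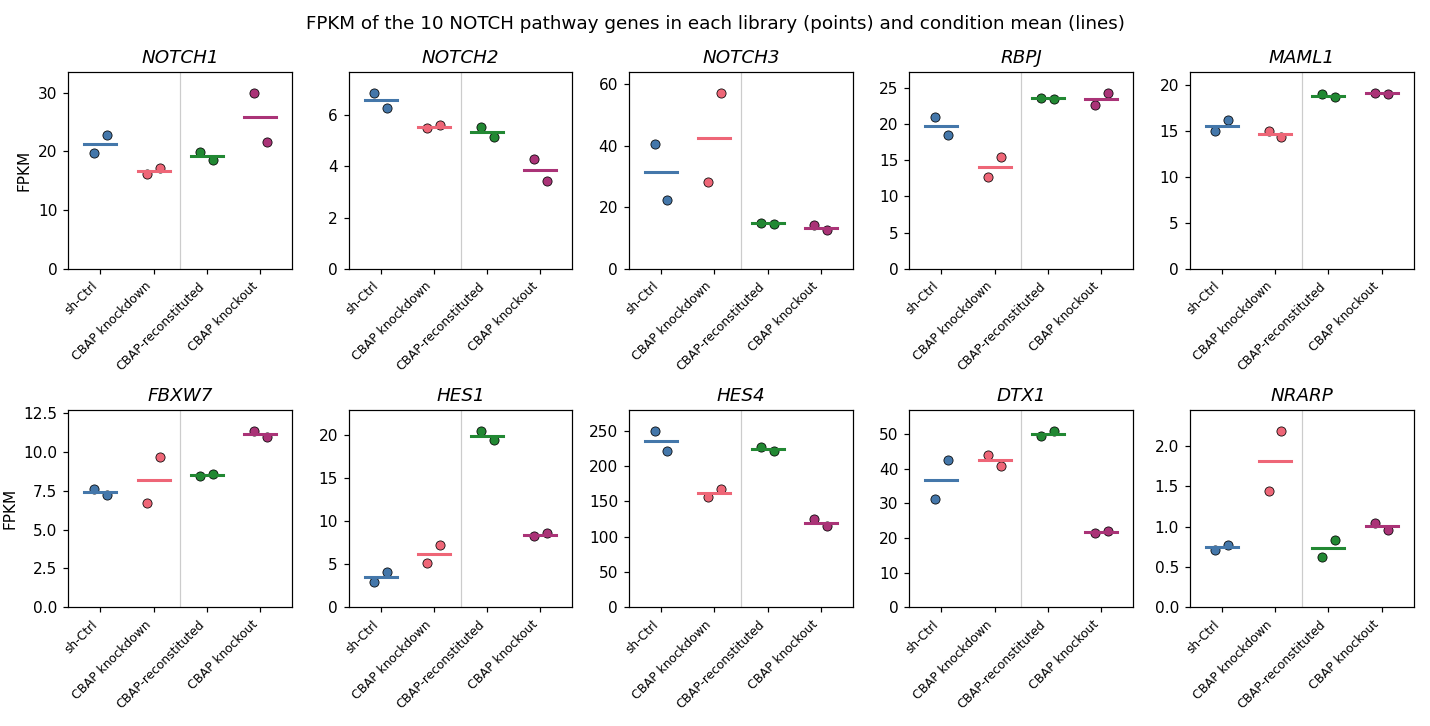
FPKM of each of the 10 genes (vertical axis, linear from 0) in the 8 libraries, by condition. Points are libraries, lines are means of 2 libraries, and the grey line parts the shRNA set (left) from the CRISPR set (right). HES4 is lower in every CBAP-deficient than in every CBAP-expressing library, whereas HES1 stands at about 20 FPKM only in the CBAP-reconstituted libraries and NOTCH3 is higher in the shRNA set.

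Among the receptors, NOTCH1 (chromosome 9, 139388885 to 139440500, minus strand, GRCh37, 34 exons) had FPKM values of 19.8 and 22.8 in sh-Ctrl, 16.2 and 17.2 in CBAP knockdown, 19.9 and 18.5 in CBAP-reconstituted and 30.0 and 21.7 in CBAP knockout libraries. Both knockdown libraries lay below both sh-Ctrl libraries, and both knockout libraries lay above both reconstituted ones. The log2 change was -0.33 (standard error 0.156, limma adjusted p = 0.227) after knockdown and 0.39 (0.156, limma adjusted p = 0.0857) in knockout cells. Neither passed 0.05, and the difference of these changes, -0.72 (standard error 0.221), had a limma adjusted p of 0.0540. This difference passed without CBAP knockout replicate 2 (0.0162) and with libraries rescaled to an equal sum (0.0361), and so did the change in knockout cells (0.0160 and 0.0341).

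NOTCH2 (chromosome 1, 120454176 to 120643366, minus strand) was the least abundant receptor, with 6.84 and 6.28 FPKM in sh-Ctrl, 5.48 and 5.59 in CBAP knockdown, 5.53 and 5.12 in CBAP-reconstituted and 4.29 and 3.43 in CBAP knockout libraries. Within each set the CBAP-deficient libraries were the lower ones, without overlap. After knockdown NOTCH2 showed a log2 difference of -0.21 (standard error 0.105, limma adjusted p = 0.248) and it fell by 0.39 in the knockout comparison (0.105, limma adjusted p = 0.0267). The second call was lost without either CBAP-reconstituted library, without CBAP knockout replicate 2 and after rescaling (adjusted p of 0.0846 to 0.143). NOTCH2 shares near-identical sequence with the NOTCH2NL genes, of which NOTCH2NL has a row of its own, so its value is uncertain where reads could be split between them.

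NOTCH3 (chromosome 19, 15269849 to 15311806, minus strand), itself a known NOTCH target in T cells, varied most within a condition. It had 40.6 and 22.3 FPKM in sh-Ctrl, 28.2 and 57.2 in CBAP knockdown, 14.96 and 14.7 in CBAP-reconstituted and 14.3 and 12.6 in CBAP knockout libraries. The shRNA-set conditions overlapped, and all 4 of their libraries lay above all 4 of the CRISPR set. Its log2 change was 0.41 (standard error 0.391, limma adjusted p = 0.531) after knockdown and -0.13 (0.391, limma adjusted p = 0.807) in knockout cells. The CRISPR set was lower than the shRNA set by a log2 difference of -1.25 (standard error 0.277, limma adjusted p = 0.0121), with means of 14.1 ± 1.07 and 37.1 ± 15.4 FPKM (SD, n = 4 each).

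Of the nuclear factors, RBPJ (chromosome 4, 26165077 to 26436753, plus strand) had 20.9 and 18.5 FPKM in sh-Ctrl, 12.6 and 15.5 in CBAP knockdown, 23.5 and 23.5 in CBAP-reconstituted and 22.6 and 24.3 in CBAP knockout libraries. The knockdown libraries were the lowest of the 8, and the conditions of the CRISPR set overlapped. RBPJ fell by 0.47 on the log2 scale after knockdown (standard error 0.110, limma adjusted p = 0.0490), and its log2 change was -0.0048 in knockout cells (0.110, limma adjusted p = 0.983). The call after knockdown lay at the threshold and was lost in 10 of 16 alternatives, among them 7 of the 8 that leave out a library, with an adjusted p of up to 0.160. The difference of the changes did not pass (-0.46, standard error 0.155, limma adjusted p = 0.0684), but it did with quantile-normalized values (0.0438), after rescaling (0.0177) and without CBAP knockdown replicate 2 (0.0152).

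MAML1 (chromosome 5, 179159823 to 179204284, plus strand) had the smallest standard error of the 10 genes. It had 15.02 and 16.2 FPKM in sh-Ctrl, 15.011 and 14.4 in CBAP knockdown, 19.0 and 18.7 in CBAP-reconstituted and 19.2 and 19.1 in CBAP knockout libraries. Its log2 change was -0.078 (standard error 0.0580, limma adjusted p = 0.413) after knockdown and 0.019 (0.0580, limma adjusted p = 0.820) in knockout cells. The sets differed more than the conditions within them, with a log2 difference of 0.31 (standard error 0.0410, limma adjusted p = 0.00207) between the CRISPR and the shRNA set. That is to be read against the median of all tested genes, which lay 0.18 higher in the CRISPR set, and with quantile-normalized values it was 0.13 (adjusted p = 0.104).

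FBXW7 (chromosome 4, 153241696 to 153457244, minus strand) had 7.64 and 7.27 FPKM in sh-Ctrl, 6.72 and 9.69 in CBAP knockdown, 8.44 and 8.60 in CBAP-reconstituted and 11.4 and 10.96 in CBAP knockout libraries. The knockout libraries were the highest of the 8, and the knockdown libraries lay on either side of the sh-Ctrl ones. Its log2 change was 0.10 (standard error 0.151, limma adjusted p = 0.688) after knockdown and 0.35 (0.151, limma adjusted p = 0.101) in knockout cells. The latter passed without either CBAP knockdown library (0.00385 and 0.00400), which enter this comparison only through the shared estimate of the spread, and after rescaling (0.0210).

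Of the target genes, HES1 (chromosome 3, 193853937 to 193856521, plus strand) encodes a bHLH repressor that is a classical direct target of NOTCH. It had 2.93 and 4.12 FPKM in sh-Ctrl, 5.14 and 7.19 in CBAP knockdown, 20.5 and 19.5 in CBAP-reconstituted and 8.24 and 8.61 in CBAP knockout libraries. No 2 conditions overlapped, and they ranked CBAP-reconstituted, CBAP knockout, CBAP knockdown and sh-Ctrl from high to low. HES1 fell by 1.15 on the log2 scale in knockout against reconstituted cells (standard error 0.178, limma adjusted p = 0.00365), a ratio of mean FPKM of 0.422. After knockdown its log2 change was 0.66 (standard error 0.178, limma adjusted p = 0.0679), a ratio of 1.75 that did not pass 0.05. It passed with quantile-normalized values (0.0407), after rescaling (0.0421) and without CBAP knockdown replicate 1 (0.0329), in the direction opposite to that in knockout cells. The changes differed by 1.81 (standard error 0.251, limma adjusted p = 0.00476). Among the CBAP-expressing cells, the mean FPKM of CBAP-reconstituted cells was 5.66 times that of sh-Ctrl cells. The CRISPR set was higher than the shRNA set by a log2 difference of 1.32 (standard error 0.126, limma adjusted p = 0.000688), and all 4 of its libraries lay above all 4 of the shRNA set.

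HES4 (chromosome 1, 934342 to 935552, minus strand), a human HES1 paralog that is also induced by NOTCH, was number 294 of the 13453 genes by mean FPKM and its mean of 185 compared with 9.52 for HES1. It had 250 and 222 FPKM (249.54 and 221.5) in sh-Ctrl, 157 and 168 in CBAP knockdown, 227 and 221 in CBAP-reconstituted and 125 and 115 in CBAP knockout libraries. The CBAP-expressing conditions overlapped each other, and both lay above the CBAP-deficient ones. HES4 fell by 0.53 on the log2 scale after knockdown (standard error 0.0793, limma adjusted p = 0.0170), a ratio of 0.690. It fell by 0.90 in the knockout comparison (0.0793, limma adjusted p = 0.000527), a ratio of 0.534. The change in the knockout comparison kept its call in all 16 alternatives, and that after knockdown was lost without either CBAP-reconstituted library (0.0616 and 0.0622). The difference of the changes, 0.37, had a limma adjusted p of 0.0518 (standard error 0.112), which was 0.0351 without sh-Ctrl replicate 1 and 0.0498 without CBAP knockdown replicate 1.

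DTX1 (chromosome 12, 113494535 to 113535833, plus strand), the gene of a Deltex ubiquitin ligase and a NOTCH target in T cells, had 31.3 and 42.5 FPKM in sh-Ctrl, 43.998 and 40.9 in CBAP knockdown, 49.5 and 50.8 in CBAP-reconstituted and 21.5 and 22.0 in CBAP knockout libraries. The knockout libraries were the lowest of the 8, the reconstituted libraries the highest, and the shRNA-set conditions overlapped. DTX1 fell by 1.17 on the log2 scale in the knockout comparison (standard error 0.138, limma adjusted p = 0.00145), a ratio of 0.434, and kept this call in all 16 alternatives. After knockdown its log2 change was 0.21 (standard error 0.138, limma adjusted p = 0.352). These changes differed by 1.38 (standard error 0.196, limma adjusted p = 0.00505).

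NRARP (chromosome 9, 140194083 to 140196723, minus strand), a single-exon gene whose product is induced by NOTCH and restrains it, was close to the lower limit of the genes tested. It had 0.710 and 0.776 FPKM in sh-Ctrl, 1.45 and 2.18 in CBAP knockdown, 0.630 and 0.8292 in CBAP-reconstituted and 1.05 and 0.955 in CBAP knockout libraries. All 4 CBAP-deficient libraries lay above all 4 CBAP-expressing ones, opposite to HES4. NRARP rose by 0.68 on the log2 scale after knockdown (standard error 0.148, limma adjusted p = 0.0413), a ratio of mean FPKM of 2.44. The call was lost in 7 of 14 alternatives, 6 of them leaving out a library, with an adjusted p of up to 0.122. Its log2 change in knockout cells was 0.21 (standard error 0.148, limma adjusted p = 0.276), a ratio of 1.37. At these levels the pseudocount of 1 shrinks the change, and with a pseudocount of 0.1 the change after knockdown was 1.16.

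**Figure D2:**
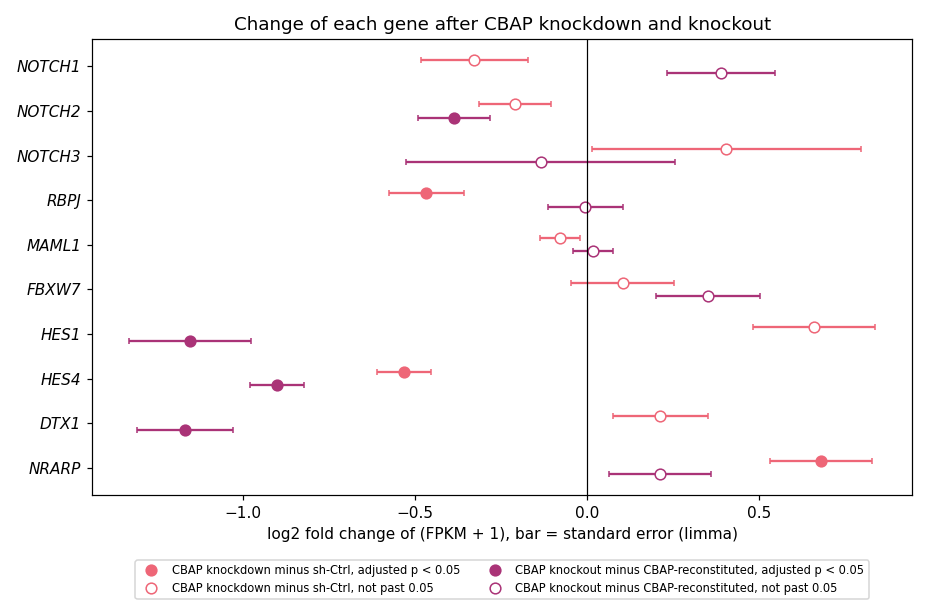
Log2 fold change of (FPKM + 1) of each gene (horizontal axis) after CBAP knockdown and in CBAP knockout against CBAP-reconstituted cells. Bars are standard errors from limma, and filled points passed an adjusted p of 0.05. HES4 is filled and below 0 in both comparisons, and HES1 lies at 0.66 after knockdown and at -1.15 in the knockout comparison.

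In total, 1 of the 10 genes rose and 2 fell after knockdown, where 3.62% of the 11427 tested genes rose and 8.70% fell (12.3% in either direction). In knockout against reconstituted cells 4 fell and none rose, where 25.9% of the tested genes fell and 23.9% rose (49.9% in either direction). A share of 4 in 10 lies near that background and is no result about the NOTCH genes as a group. After knockdown 7 of 10 genes had conditions that did not overlap (50.6% of all tested genes), 2 as higher (17.4%) and 5 as lower (33.2%). For knockout against reconstituted cells there were 9 (85.7%), 4 as higher (43.0%) and 5 as lower (42.7%). HES4 was the only one of the 10 called lower in both comparisons, as were 4.03% of all tested genes, and none was called higher in both (1.72%) or in opposite directions (2.49%). The difference of the changes passed for 2 of 10 genes, HES1 and DTX1, both in the positive direction (15.5% of all tested genes, with 18.3% in the negative and 33.8% in either). The median log2 change of the 10 genes was 0.013 after knockdown and -0.070 in knockout cells, beside -0.060 and 0 for all tested genes.

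With the 4 CBAP-deficient libraries set against the 4 CBAP-expressing ones, 0 of the 10 genes passed limma's adjusted p of 0.05, against 0.621% of all tested genes (0.210% higher and 0.411% lower). At an unadjusted p under 0.05 there were 2 of 10, HES4 and NRARP, about the share of all tested genes (21.0%), and the same genes were the only ones of the 10 whose classes did not overlap (14.9% of all tested genes, 4.67% higher as NRARP and 10.3% lower as HES4). HES4 had a mean of 141 ± 25.4 in CBAP-deficient and 230 ± 13.4 FPKM (229.88) in CBAP-expressing libraries (SD, n = 4 each), and its log2 change was -0.72 (limma adjusted p = 0.0642, standard error 0.133). Fitted beside the set as a covariate, HES4 passed (limma adjusted p = 0.0114). It was 1 of 10 in a fit that called 12.3% of all tested genes, 8.46% as lower, a share near the background. NRARP had 1.41 ± 0.559 and 0.736 ± 0.0861 FPKM (SD, n = 4 each), a log2 change of 0.45 (standard error 0.193, limma adjusted p = 0.237). For HES1 the log2 change of the classes was -0.25 (standard error 0.583), with overlapping classes.

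The CRISPR and the shRNA set differed for 6 of the 10 genes, 3 higher and 3 lower in the CRISPR set, where 42.8% of all tested genes were higher and 13.1% lower (55.9% in either direction). For 4 of the 10 the sets did not overlap (30.2%), with RBPJ, MAML1 and HES1 higher (24.4%) and NOTCH3 lower (5.78%). HES1, RBPJ (0.48, standard error 0.0774, limma adjusted p = 0.00414) and MAML1 were higher. NOTCH3, NOTCH2 (-0.35, standard error 0.0743, limma adjusted p = 0.0107) and HES4 (-0.25, standard error 0.0561, limma adjusted p = 0.0120) were lower. The sets also differ in method, clones and possibly in the authors' processing, and these cannot be told apart.

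Around these genes, 88 further gene names of the pathway were listed in 8 groups, of which 73 were in the table and 70 were tested. NEURL, which was tested, and NEURL1, which was not in the table, are names of the same gene. After knockdown 5 of the 70 were higher and 12 lower, beside 3.62% and 8.70% of all tested genes, with a median log2 change of -0.073 (-0.060 for all). In knockout against reconstituted cells 21 were higher and 19 lower, beside 23.9% and 25.9% of all tested genes, with a median of 0.071 (0 for all). These shares of all tested genes are the background for the groups that follow, whose counts are small.

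**Figure D3:**
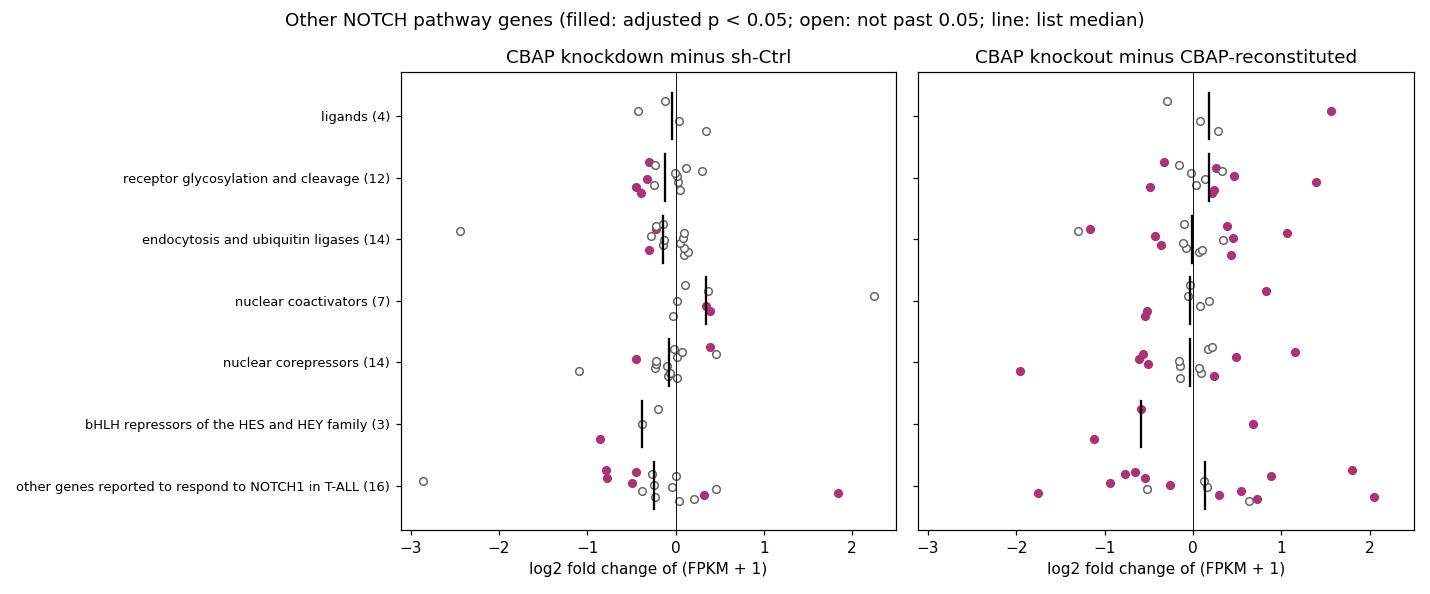
Log2 fold change of (FPKM + 1) of 70 other pathway genes (points) by group, after CBAP knockdown (left) and in CBAP knockout against CBAP-reconstituted cells (right). Filled points passed an adjusted p of 0.05, vertical lines are group medians, and the number tested is in brackets. After knockdown most points lie within 0.5 of 0, and in the knockout comparison filled points lie on both sides of 0. The open points farthest from 0 after knockdown are PTCRA (-2.86), NUMBL (-2.44) and KAT2A (2.24). Each has a listed 0 in the shRNA set, as KAT2A with 27.2 and 0 FPKM in sh-Ctrl.

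Of the ligand genes, 4 of 7 were tested and 1 passed. JAG1, which encodes a Jagged ligand, had 0.649 and 0.523 FPKM in CBAP-reconstituted and 3.59 and 3.80 FPKM in CBAP knockout libraries, a log2 change of 1.57 (standard error 0.130, limma adjusted p = 0.000439). It had 2.08 and 2.65 FPKM in sh-Ctrl and 1.71 and 1.30 FPKM in CBAP knockdown libraries, so the reconstituted libraries were the lowest and the knockout libraries the highest of the 8. Among 12 tested genes of receptor glycosylation and cleavage, 4 were lower after knockdown and none higher (8.70% and 3.62% of all tested genes), and in the knockout comparison 5 were higher and 2 lower (23.9% and 25.9%). ADAM10, the protease that makes the ligand-induced cut, had 54.4 and 55.0 FPKM in sh-Ctrl, 43.6 and 39.3 in CBAP knockdown, 56.3 and 57.6 in CBAP-reconstituted and 65.3 and 67.5 in CBAP knockout libraries. Its level was thus lowest after knockdown and highest in knockout cells, and it passed in both comparisons (limma adjusted p of 0.0192 and 0.0299), in opposite directions. RFNG and APH1A of the same group were instead called lower in both comparisons, as were 4.03% of all tested genes.

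Of 14 tested genes of endocytosis and ubiquitin ligation, 2 were lower after knockdown (8.70% of all tested genes), and 4 were higher and 3 lower in the knockout comparison, near the background of 23.9% and 25.9%. RBX1, a subunit of the ligase that contains FBXW7, fell by 1.16 there (standard error 0.0468, limma adjusted p = 3.87e-05), to 59.3 and 58.8 from 130 and 138 FPKM (129.78 and 137.58). Of 7 tested nuclear coactivators, 2 were higher after knockdown, among them CDK8, a kinase that acts on the NOTCH complex (0.39, standard error 0.0880, limma adjusted p = 0.0459). Among these coactivators 1 was higher and 2 were lower in knockout cells, CDK8 among the lower (-0.52, limma adjusted p = 0.00525). Of 14 corepressors, TLE4 was higher after knockdown (0.39, standard error 0.0869, limma adjusted p = 0.0421). Against reconstituted cells 3 corepressors were higher and 4 lower, with the largest drop at CTBP2 (-1.95, standard error 0.403, limma adjusted p = 0.0103). CTBP2 had 21.5 and 22.5 FPKM in CBAP-reconstituted and 4.92 and 4.97 FPKM in CBAP knockout libraries. The shRNA set lay below both, at 0.351 to 4.33 FPKM.

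HES and HEY genes other than HES1 and HES4 were few, with 3 of 8 tested. HES6, which encodes a relative of HES1 that opposes it, had 26.4 and 28.6 FPKM in sh-Ctrl, 16.2 and 13.5 in CBAP knockdown, 39.3 and 41.9 in CBAP-reconstituted and 19.3 and 17.2 in CBAP knockout libraries. Like HES4 it was lower in every CBAP-deficient library than in every CBAP-expressing one, as were 10.3% of all tested genes. Its log2 change was -0.85 after knockdown (standard error 0.105, limma adjusted p = 0.0107) and -1.11 in knockout cells (limma adjusted p = 0.000666). HEY2 was higher and HEYL lower in the knockout comparison, and HEYL was also lower in every CBAP-deficient library than in every CBAP-expressing one. HEY1 went the other way, with 0.559 to 2.35 FPKM in CBAP-deficient and 0.328 to 0.530 FPKM in CBAP-expressing libraries. It was not tested, as its mean of 0.936 FPKM lay under the filter.

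Among 16 tested genes reported to respond to NOTCH1 in T-ALL, 2 were higher and 4 lower after knockdown (3.62% and 8.70% of all tested genes), and 6 were higher and 6 lower in the knockout comparison (23.9% and 25.9%). HHEX, a homeobox gene, had 0.636 and 0.705 FPKM in sh-Ctrl and 4.55 and 5.44 FPKM in CBAP knockdown libraries, and rose by 1.84 on the log2 scale (standard error 0.1005, limma adjusted p = 0.000786). In the CRISPR set it had 2.39 and 2.42 FPKM in CBAP-reconstituted libraries (2.385 and 2.4171) and 0.0219 and a listed 0 in CBAP knockout libraries. HHEX thus moved in opposite directions in the sets, as did TCF7, the gene of a T-cell transcription factor. TCF7 had 235 and 213 FPKM in sh-Ctrl, 121 and 138 in CBAP knockdown, 50.1 and 51.2 in CBAP-reconstituted and 178 and 181 in CBAP knockout libraries. CDKN1A, the gene of the cell-cycle inhibitor p21, rose by 2.05 in the knockout comparison (standard error 0.226, limma adjusted p = 0.00112), to 7.14 and 7.24 from 0.996 and 0.954 FPKM. RELB, a subunit of NF-kappaB, fell by 0.78 after knockdown (standard error 0.123, limma adjusted p = 0.0196). In the knockout comparison its log2 change was -0.54 (standard error 0.123, limma adjusted p = 0.0146). NFKB2 and SKP2 were also called lower in both comparisons (4.03% of all tested genes), and GATA3 was called higher in both (1.72%). MYC, a main NOTCH1 target in T-ALL, had 148 and 165 FPKM in sh-Ctrl, 125 and 137 in CBAP knockdown, 157 and 157 in CBAP-reconstituted and 130 and 132 (130.41 and 132.34) in CBAP knockout libraries. It was lower in all 4 CBAP-deficient libraries and passed only in the knockout comparison (-0.25, limma adjusted p = 0.0302), while the same change after knockdown, -0.25, had a limma adjusted p of 0.0800.

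The tested genes whose log2 levels were most like those of HES1 over the 8 libraries were NHEJ1, GPS2 and CENPO, with Pearson's r of 0.995, 0.992 and 0.986. GPS2 had 47.1 and 51.6 FPKM in sh-Ctrl, 53.4 and 64.6 in CBAP knockdown, 87.7 and 93.2 in CBAP-reconstituted and 66.6 and 66.5 in CBAP knockout libraries, the order seen for HES1. In all, 331 genes (2.90% of those tested) had an r of at least 0.9 with HES1. For NOTCH1 there were 29 (0.254%), led by PGS1, ZNF546 and ANKLE1, with r of 0.967, 0.954 and 0.949. The 8 libraries share 4 conditions and 2 sets, so many genes follow the same pattern.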

How the data were processed

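RNA-seq of 8 Jurkat libraries was analysed. The authors aligned reads to hg19 with TopHat (Bowtie; base calls with CASAVA 1.8, per the labels) and estimated FPKM with cuffdiff of Cufflinks. They deposited 1 table of FPKM values for 13453 genes, with a column per library and no counts, so depth is unknown and precision rests on 2 libraries per condition. The Cufflinks version, annotation and library scaling are not given in the sources used here.

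Genes with a mean of at least 1 FPKM (11427) were tested on log2(FPKM + 1), which understates changes of low genes, with limma 3.58.1 (R 4.3.3; moderated variances that follow a mean trend), and p-values were adjusted after Benjamini and Hochberg over all of them, threshold 0.05. A fit with a mean per condition gave the changes within each set, their difference (knockdown minus knockout) and the set difference. A fit with 2 classes of 4 gave the class change. The replicate numbers of the labels name libraries and do not pair them.

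The 10 genes and the pathway and marker lists were chosen with earlier results of these data known. Named besides the 10 genes were, per comparison and direction, the 3 list genes with the largest change among those past the threshold without overlap, and the 3 genes most alike to NOTCH1 and HES1. ADAM10, RFNG, APH1A, HEY1, HEY2, HEYL, MYC, NFKB2, SKP2, GATA3, NUMBL, PTCRA, KAT2A, PECAM1 and the T-cell markers given by name were chosen after their values were seen. A result that the rule would name is not reported here. Gene positions are from GENCODE 44 lifted to GRCh37, and promoters from the RefSeq table of GRCh38.p14 (Python 3.11.15, pandas 2.3.3). Only the knockdown comparison was tested on simulated data, with changes larger than those reported here for the 10 genes after knockdown. Alternatives were pseudocounts of 0.1 and 0.5, no filter, a filter at 5 FPKM, quantile normalization, rescaling to an equal sum, no trend, the replicate number as a block, the set as a covariate and each library left out.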

Additional observations from a re-analysis of the deposited data

Results flagged for a closer look

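Among the 10 genes, 2 had a change that differed between the sets by the interaction contrast, beside 33.8% of all tested genes. This count is therefore no result about the NOTCH genes as a group. For HES1 the knockdown change minus the knockout change was 1.81 in log2 (limma adjusted p = 0.00476), with a ratio of mean FPKM of 1.75 after knockdown and of 0.422 in the knockout comparison. For DTX1 it was 1.38 (limma adjusted p = 0.00505), with ratios of 1.15 and 0.434. Both genes had their highest level in the CBAP-reconstituted libraries. These were also the lowest of the 8 for 5 of 14 T-cell markers and the highest for 3, and the part of the marker differences in these results was not tested.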

How the results depend on the processing

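The number of the 10 genes called was 3, 4, 2, 0 and 6 (knockdown, knockout, difference, classes and sets). With all libraries kept and each alternative counted once per comparison, it stayed within 1.5 times that value in 37 of 41 cases. The exceptions were 1 after knockdown with the replicate number as a block, 1 by class with the set as a covariate (HES4), and 4 for the difference with quantile-normalized values and with libraries rescaled to an equal sum. In the same order, 776, 1404, 3951 and 4566 of the 11427 tested genes were called. The labels do not pair the libraries, and over tested genes the replicate differences of sh-Ctrl and CBAP knockdown had an r of 0.146 and those of the CRISPR set 0.0239. With 1 library left out the counts ranged from 0 to 4 after knockdown, 3 to 5 in the knockout comparison, 2 to 4 for the difference, 0 to 0 by class and 5 to 8 between sets. After knockdown none was called by limma without either CBAP-reconstituted library (smallest adjusted p 0.0616 and 0.0622, HES4), and 1 without sh-Ctrl replicate 1 or either CBAP knockout library. For the difference 4 were called without either CBAP knockdown library.

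Values that changed sign passed the test neither as reported nor after the change. In the knockout comparison RBPJ was 0.017 with quantile normalization and 0.15 after rescaling, NOTCH3 was 0.013 after rescaling, and by class MAML1 was 0.068 after rescaling. With 1 library left out, RBPJ ranged from -0.053 to 0.043 in the knockout comparison, and after knockdown DTX1 ranged from -0.0018 (without sh-Ctrl replicate 1) to 0.43, FBXW7 from -0.13 (without CBAP knockdown replicate 2) to 0.34 and NOTCH3 from -0.092 (without CBAP knockdown replicate 2) to 0.90. By class the ranges were -0.28 to 0.44 for NOTCH3, -0.091 to 0.039 for MAML1, -0.68 to 0.14 for HES1 and -0.14 to 0.14 for NOTCH1. The upper values of DTX1 and FBXW7 after knockdown passed the test (adjusted p of 0.0374 without sh-Ctrl replicate 2 and 0.0287 without CBAP knockdown replicate 1). The NRARP difference passed with quantile normalization (0.0349) and without CBAP knockdown replicate 1 (0.0270), and the FBXW7 difference without CBAP knockdown replicate 2 (0.00995). The cause was not tested. Rescaling moved the median of all genes to 0.14 in the knockout comparison and to -0.16 for the difference. In the knockout comparison 2 of the 10 genes, NOTCH1 and FBXW7, were then called higher and 3 lower. That fit called 6327 of the 11427 tested genes there in either direction. NRARP gave no value with the filter at 5 FPKM and none after knockdown without CBAP knockdown replicate 2, where its mean was under 1 FPKM.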
